A study of Mus musculus with 6 samples.

Results

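Solute carriers are membrane proteins that move amino acids, sugars, metal ions, nucleotides, vitamins and other small molecules across the plasma membrane and the membranes of organelles. They are grouped into numbered families by sequence, and members of a family often, but not always, carry related solutes. Zinc carriers of the Slc39 (ZIP) family bring zinc into the cytosol, those of the Slc30 (ZnT) family take it out of the cytosol, and most Slc25 carriers sit in the inner membrane of mitochondria. In leukocytes, carriers supply amino acids for protein synthesis and growth signalling, and eosinophils are granulocytes that store ready-made cationic proteins in their granules. The genes described here are the solute carriers of a mouse eosinophil expression table, without 8 carriers of glucose, lactate, cystine and iron linked to glycolysis and redox balance (Slc2a1, Slc2a3, Slc16a1, Slc16a3, Slc7a11, Slc40a1, Slc11a1 and Slc11a2). They were taken by symbol, as numbered Slc and Slco genes with a normalized count of at least 10 in at least 3 of 6 libraries. The rule matched 372 of the 23420 genes in the table, 364 were left after the 8 were set aside, and 173 of these reached the level. The other 191 did not, among them 66 with 0 reads in every library.

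Bone marrow-derived eosinophils (BMEo) of wild-type (WT) genotype were compared after 3 h with IL-33 at 2.5 ng/mL or with phosphate-buffered saline (PBS), with 3 libraries in each group. The cells of all 6 libraries had first received stem cell factor with FLT3-L, then IL-5 at 20 ng/mL, and were taken on day 14 after dead cells were removed. IL-33 is an alarmin cytokine that signals through the receptor ST2. Whether replicates stem from different animals or cultures is not stated in the labels, so p-values here reflect only how far these libraries vary, possibly for technical reasons.

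The libraries held 9412814, 10785521 and 9362650 recovered reads in the IL-33 group and 8761710, 8981930 and 8218303 in the PBS group. Rn45s, the ribosomal RNA precursor gene, took 24.3%, 59.6% and 54.8% of them in IL-33 replicates 1, 2 and 3 and between 13.7% and 24.8% in the PBS libraries. IL-33 replicates 2 and 3 therefore stood apart, with 4355586 and 4229504 reads for all other genes, against 6592044 to 7091546 in the PBS libraries. Of 10 eosinophil markers, 9 fell with IL-33 (adjusted p under 0.05, limma), among them Epx and Prg2, where 14.4% of all tested genes fell. Prg2, Ccr3, Ear1 and Ear6 no longer passed the test on omitting some single libraries. Ear2 reached the level in only 3 libraries, so its fall is a description. The summed normalized counts of the 10 markers were 24131, 31334 and 18843 after IL-33, against 52282, 62607 and 51552 after PBS. The summed macrophage and monocyte list was 31077, 25051 and 24292 after IL-33, against 11370, 8877 and 10409 after PBS. In that list 2 of 4 tested genes rose (17.4% of all tested genes). They were Emr1, which eosinophils also express, and Csf1r. Marco was at 0 in all 6 libraries, and C1qa, C1qb and C1qc did not exceed 13.6. Neutrophil markers summed to between 2320 and 3068 after IL-33, against between 2847 and 3487 after PBS. Of these 8 markers, 2 fell (14.4% of all tested genes). The part of these marker shifts in the carrier differences was not tested, and in bulk RNA fewer cells of a type and less RNA per cell cannot be told apart.

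With IL-33, 35 of the 173 carriers rose and 18 fell at a Benjamini-Hochberg adjusted p under 0.05 (limma on log2 of the normalized count + 1, adjusted over all 10544 genes tested). That is 20.2% and 10.4% of the carriers, where 17.4% of all tested genes rose and 14.4% fell, so both shares lie near the background. The median log2 difference, IL-33 minus PBS, was 0.15 for the carriers and -0.03 for all tested genes. With at least a 2-fold change, 27 rising and 12 falling carriers were called, and with at least a 4-fold change 8 rising and 2 falling carriers. The shares of all tested genes at these cuts were not computed. The 3 IL-33 libraries lay wholly above the 3 PBS libraries for 49 carriers and wholly below for 33, where 25.5% and 24.7% of all tested genes did so. These counts describe the carriers that reached the level: Slc12a2 and Slc1a4 did so only in the IL-33 libraries, and Slc30a2 and Slc39a10 only in the PBS libraries, so these 4 had to differ. Just inside the level were Slc2a12, Slc25a40 and Slc25a47, whose value in the library of rank 3 was 10.1, 10.5 and 10.9, and just outside it were Slc30a4, Slc6a13 and Slc37a2, at 8.54, 9.23 and 9.46.

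The spread of the carriers was larger after IL-33. Their coefficient of variation over 3 libraries had a median of 23.5% in the IL-33 group and 13.8% in the PBS group. It was the larger in the IL-33 group for 132 carriers. The spread over all tested genes was not computed, so whether the difference is particular to the carriers was not tested. Among the 35 risen carriers the median log2 difference from the PBS mean was 1.21, 1.29 and 1.56 in IL-33 replicates 1, 2 and 3, and among the 18 fallen carriers it was -0.86, -1.29 and -1.39. With IL-33 replicate 1 alone against PBS, 32 of the 35 and 14 of the 18 were called, where 19% of all tested genes rose and 18% fell. That fit has 1 IL-33 library, which is assumed to vary like the PBS libraries, and these carriers were called with the same libraries included, so their direction in it is no separate evidence. Leaving out a library changed the counts of risen and fallen carriers to 53 and 33 on omitting IL-33 replicate 1 (28% and 28.4% of all tested genes), 24 and 8 on omitting IL-33 replicate 2 (8.43% and 7.23%), and 29 and 13 on omitting IL-33 replicate 3 (13.5% and 11.6%). They became 28 and 7 on omitting PBS replicate 1 (10.8% and 5.78% of all tested genes), 21 and 5 on omitting PBS replicate 2 (7.6% and 3.47%), and 18 and 3 on omitting PBS replicate 3 (6.74% and 3.08%). The calls over all genes moved the same way as those of the carriers. Scaling all libraries to equal totals, Rn45s included, moved the median of all tested genes to -1.06, and then 6 carriers rose and 67 fell, where 2.5% of all tested genes rose and 50.1% fell. The carriers called in the same direction under all 20 alternative settings were Slco3a1, Slc39a4, Slc2a6, Slc43a3 and Slc25a33, which rose, and Slco4c1, Slc10a7 and Slc28a2, which fell.

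**Figure D1:**
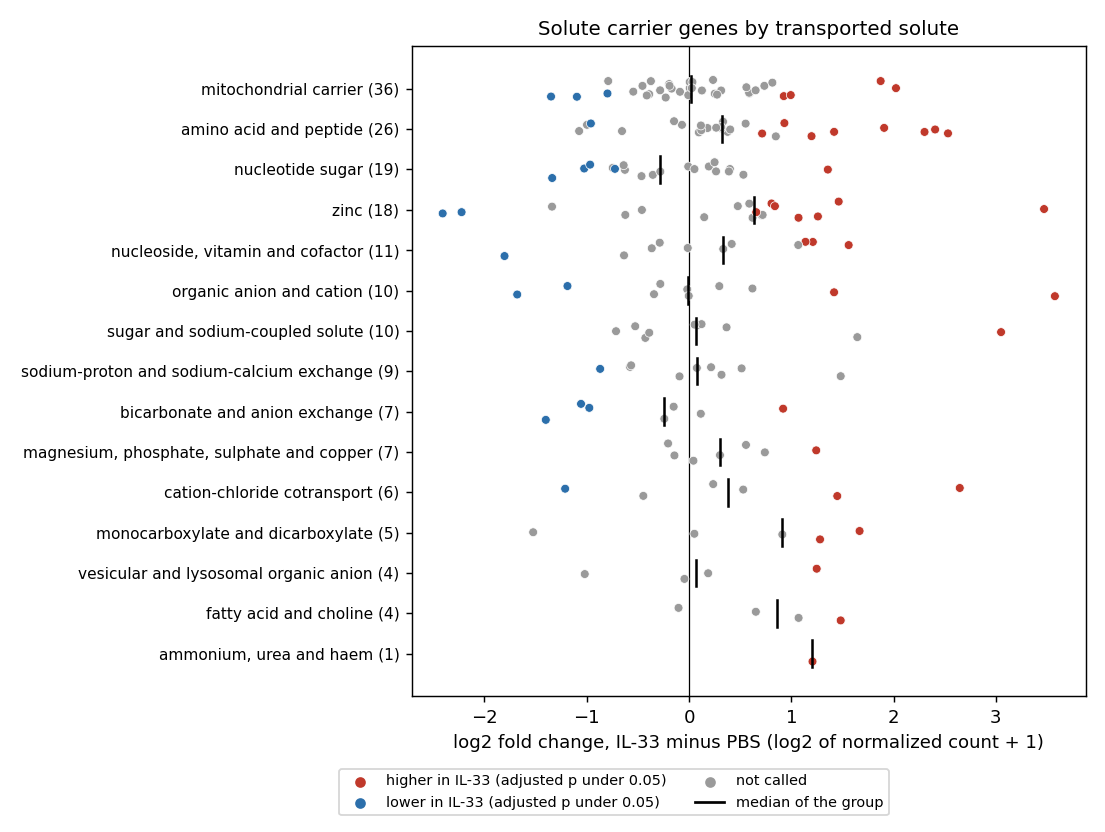
Log2 fold change (IL-33 minus PBS, log2 of normalized count + 1) of each of the 173 solute carrier genes, in rows by the solute their family carries, with the number of genes in brackets. Red points rose, blue points fell, grey points were not called, and black bars are group medians; the 35 red points lie between 0.66 and 3.58 and the 18 blue points between -2.41 and -0.72.

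Among the sugar carriers 1 gene, Slc2a6, rose, with a log2 difference that only Slco3a1 and Slc39a4 exceeded among the 173 carriers. Slc2a6 encodes GLUT6, a member of the facilitative hexose carrier family that sits on lysosomes in mouse macrophages. Its normalized counts were 2640, 1987 and 2624 after IL-33, against 292, 298 and 275 after PBS. Every IL-33 library was several times above every PBS library. The log2 difference was 3.05 ± 0.17 (SE, adjusted p = 5.02e-05, limma), and it stayed between 2.98 and 3.19 whichever library was left out. Per kilobase of exon, Slc2a6 averaged 753 in the IL-33 group, number 3 of the 173 carriers, and 89.9 in the PBS group, where it was number 26. Of the 10 genes in the sugar and sodium-coupled families it was the only one called by limma, where 17.4% of all tested genes rose and 14.4% fell. The median log2 difference of the 10 genes was 0.07. Slc5a3, of the same group, had a log2 difference of 1.65 and was called higher by edgeR and DESeq2. By limma it was called on omitting IL-33 replicate 1 or 3 (1.06 to 2.11 over the omitted libraries).

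The gene lies on the minus strand of chromosome 2 (GRCm38, 27021363 to 27027998). The stretch from base 250 to base 21 before its RefSeq start (GRCm38.p6, chr2:27028019-27028248, minus strand, outside annotated exons) is shown because Slc2a6 is the most abundant carrier with at least a 4-fold rise. It is in lower case throughout, since neither motif searched below was found in it:
Slc2a6: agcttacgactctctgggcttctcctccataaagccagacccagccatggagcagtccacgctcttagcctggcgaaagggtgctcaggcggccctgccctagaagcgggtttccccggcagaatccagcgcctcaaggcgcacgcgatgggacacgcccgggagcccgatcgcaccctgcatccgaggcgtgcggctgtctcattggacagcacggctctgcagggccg

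Organic anion carriers moved in both directions, with 2 of 10 genes higher and 2 lower (17.4% and 14.4% of all tested genes). Slco3a1, an organic anion transporting polypeptide (chromosome 7, 74275419 to 74554780, minus strand), had normalized counts of 235, 361 and 337 after IL-33, against 27.2, 20.4 and 27.3 after PBS. Its log2 difference of 3.58 ± 0.25 (SE, adjusted p = 0.000105, limma) was the largest of the 173 carriers, with no overlap between the groups. The related Slco4c1 went the other way, at 50.3, 69.2 and 66.1 after IL-33, against 141, 142 and 140 after PBS, a log2 difference of -1.19 ± 0.21 (adjusted p = 0.00568, limma). The remaining gene of that family, Slco4a1, was not called (453 ± 171 with IL-33, 369 ± 141 with PBS, SD, n = 3 each). Its 6 values overlapped widely, from 317 to 645 with IL-33 and from 275 to 530 with PBS. Slc22a23, an organic ion carrier with no settled substrate, averaged 302 ± 45.8 with IL-33 and 114 ± 32.4 with PBS, and rose by 1.42 on the log2 scale. Slc22a4, the ergothioneine carrier, was low throughout, at 31.1 ± 3.72 with IL-33 and 19.8 ± 1.5 with PBS, and was not called although its groups did not overlap. Slc10a7, of the bile acid carrier family, fell by 1.68 on the log2 scale: it was at 33.3, 35.4 and 33.9 after IL-33, against 83.1, 122 and 138 after PBS.

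**Figure D2:**
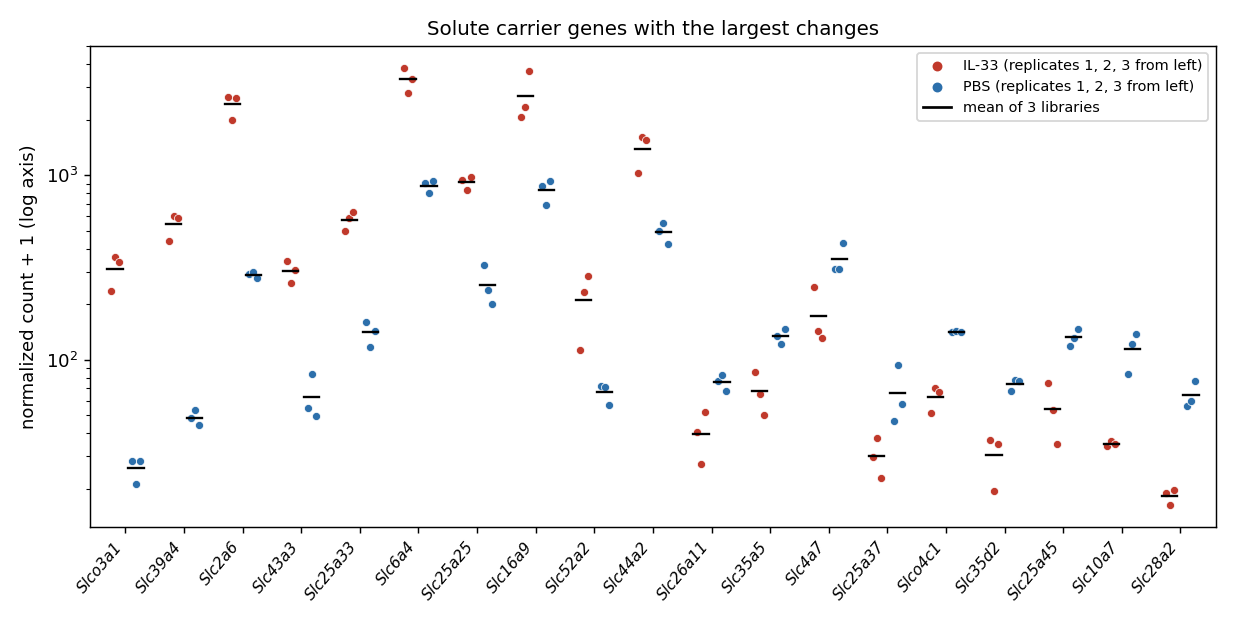
Normalized count + 1 (log axis) in each library for the 10 risen and 9 of the 10 fallen solute carriers with the largest changes, no overlap between groups and a mean of at least 50 in a group. Red points are IL-33 libraries, blue points PBS libraries and black bars means of 3; Slco3a1, Slc39a4 and Slc2a6 show the widest gaps between the groups.

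Of 18 zinc carriers, 7 rose and 2 fell (17.4% and 14.4% of all tested genes), with a median log2 difference of 0.64. Among the 12 Slc39 importers 5 rose, 1 fell and 6 were not called, and among the 6 Slc30 genes 2 rose, 1 fell and 3 were not called. On equal totals the median of the 18 was -0.40, with 1 gene higher and 6 lower (2.5% and 50.1% of all tested genes). Slc39a4, a plasma membrane zinc importer whose loss in humans causes zinc deficiency (chromosome 15, 76612383 to 76617384, minus strand), had 439, 603 and 586 after IL-33, against 47.4, 52.4 and 43.3 after PBS. Its log2 difference was 3.47 ± 0.20 (SE, adjusted p = 6.07e-05, limma), and every IL-33 library was well above every PBS library. Per kilobase it moved to rank 19 of the 173 carriers with IL-33, against rank 101 with PBS. Slc39a14, an importer of zinc, iron and manganese, averaged 85.5 ± 8.48 with IL-33 and 30.7 ± 5.88 with PBS, a log2 difference of 1.46. Slc39a1, another importer of the plasma membrane, averaged 409 ± 77.5 with IL-33 and 169 ± 15.8 with PBS, a log2 difference of 1.26. Slc30a1, the main zinc exporter of the plasma membrane, had 322, 318 and 220 after IL-33, against 163, 114 and 129 after PBS. Its log2 difference was 1.07 ± 0.23 (adjusted p = 0.0117, limma), with no overlap between the groups. Slc39a6 averaged 121 ± 31.3 with IL-33 and 65.5 ± 2.76 with PBS and rose by 0.84 on the log2 scale, a sign that turned to -0.19 on equal totals.

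The zinc loaders Slc30a5 and Slc30a7 were not called, and 2 other zinc genes fell. Slc30a5, which loads zinc into the Golgi, averaged 263 ± 45.2 with IL-33 and 236 ± 28.2 with PBS, and Slc30a7, of the same compartment, averaged 219 ± 90.0 with IL-33 and 321 ± 39.9 with PBS. Neither was called (adjusted p = 0.577 and 0.127, limma), and the groups overlapped for both genes. The vesicular zinc loader Slc30a2 had 6.29, 7.69 and 3.39 after IL-33, against 34.2, 35.7 and 21 after PBS. Slc39a10, an importer, had 8.99, 1.54 and 0 after IL-33, against 17.1, 12.4 and 14.7 after PBS. Slc39a9, a carrier of the trans-Golgi network, averaged 561 ± 93.9 with IL-33 and 352 ± 17 with PBS and rose by 0.66 on the log2 scale (-0.38 on equal totals), a call lost on omitting any library other than IL-33 replicate 1 (0.53 to 0.77). Slc39a8, an importer, had 7.19, 10.8 and 3.39 after IL-33, against 14, 24.7 and 16.8 after PBS, and was not called by limma (log2 difference -1.34, adjusted p = 0.0592) but was called lower by edgeR. Slc30a2 and Slc39a10 reached the level of 10 only with PBS, so their difference is a description. Slc39a10 was not called on omitting IL-33 replicate 2 or 3, with log2 differences of -3.29 to -1.63 over the omitted libraries, nor by edgeR or DESeq2. The number of risen zinc genes was 10 on omitting IL-33 replicate 1 (28% of all tested genes). It was 3 on omitting IL-33 replicate 2 (8.43%) and 5 on omitting IL-33 replicate 3 (13.5%). It was 4 on omitting PBS replicate 1 (10.8%) and 3 on omitting PBS replicate 2 or 3 (7.6% and 6.74%). The number of fallen zinc genes was 4 on omitting IL-33 replicate 1 (28.4% of all tested genes) and 1 on omitting IL-33 replicate 2 or 3 (7.23% and 11.6%). It was 0 on omitting PBS replicate 1, 2 or 3 (5.78%, 3.47% and 3.08%). In those 3 fits neither Slc30a2 nor Slc39a10 reached the level in 3 libraries. Slc30a1 lost its call on omitting IL-33 replicate 2, PBS replicate 2 or 3, with log2 differences of 0.96 to 1.25 over the omitted libraries. Slc39a6 lost it on omitting any library other than IL-33 replicate 1, with 0.67 to 1.06.

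**Figure D3:**
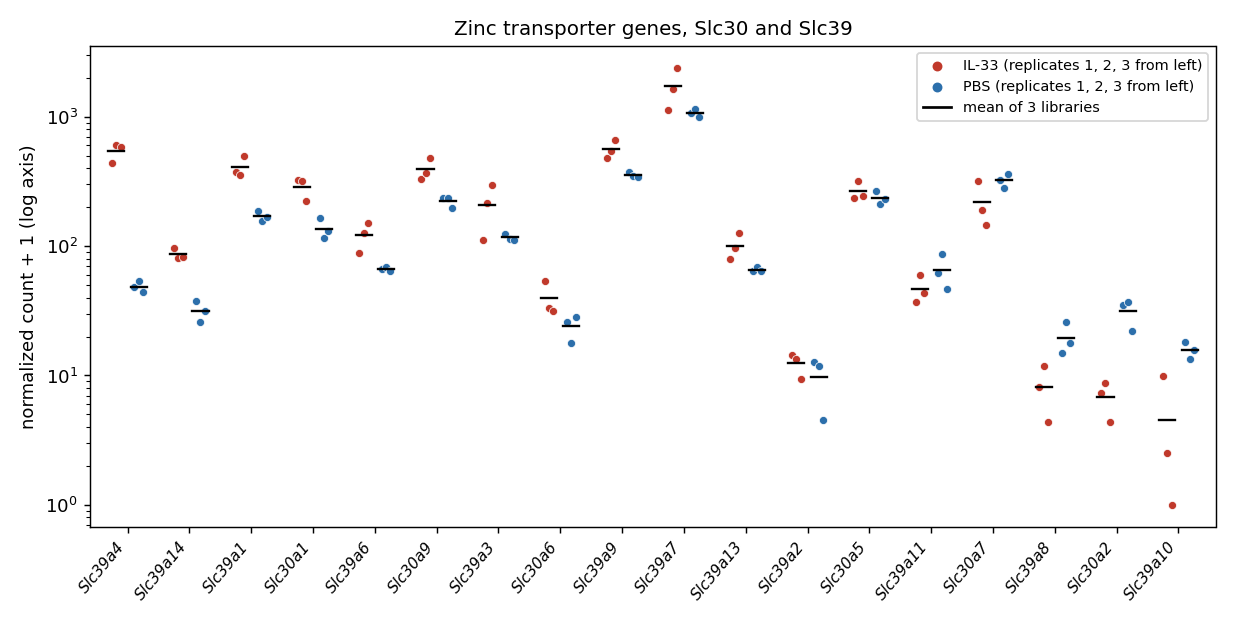
Normalized count + 1 (log axis) in each library for the 18 zinc carrier genes, ordered by log2 fold change. Red points are IL-33 libraries, blue points PBS libraries and black bars means of 3; the IL-33 values of Slc39a4 lie between 439 and 603 and its PBS values between 43.3 and 52.4, while Slc30a5 and Slc39a2 overlap.

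Metallothioneins, which buffer cytosolic zinc, were not called. Mt1 averaged 220 ± 118 with IL-33 and 215 ± 41 with PBS, and Mt2 averaged 34.3 ± 19.4 with IL-33 and 33.9 ± 12.5 with PBS, with overlapping groups in both. Mtf1, which encodes the metal-responsive transcription factor that acts on metallothionein genes and on Slc30a1, had 428, 540 and 630 after IL-33, against 353, 339 and 321 after PBS. It rose by 0.64 on the log2 scale (adjusted p = 0.0355, limma), a call lost on equal totals and on omitting any library other than IL-33 replicate 1 (0.51 to 0.79). Of 5 tested genes of zinc buffering and sensing, 1 rose and 1 fell (17.4% and 14.4% of all tested genes). The one that fell was S100a9, a zinc-binding neutrophil protein, at 442, 200 and 93.2 after IL-33, against 524, 688 and 564 after PBS, and its call too was lost on omitting any library other than IL-33 replicate 1 (log2 differences of -2.10 to -0.98).

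The upstream stretches of a zinc exporter and a zinc importer that rose are shown with matches to TGCNCNC, searched on both strands, in capitals. This is a loose form of the metal response element core, TGCRCNC, where R is A or G. The capitals in Slc39a1, TGCTCGC, match only the loose form. They run from base 250 to base 21 before the RefSeq start (GRCm38.p6), on the plus strand, at chr1:191906531-191906760 for Slc30a1 and chr3:90247942-90248171 for Slc39a1:
Slc30a1: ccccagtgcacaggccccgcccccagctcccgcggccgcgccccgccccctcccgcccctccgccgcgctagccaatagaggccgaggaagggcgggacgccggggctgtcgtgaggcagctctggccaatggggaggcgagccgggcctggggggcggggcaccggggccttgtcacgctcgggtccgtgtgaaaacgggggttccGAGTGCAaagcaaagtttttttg
Slc39a1: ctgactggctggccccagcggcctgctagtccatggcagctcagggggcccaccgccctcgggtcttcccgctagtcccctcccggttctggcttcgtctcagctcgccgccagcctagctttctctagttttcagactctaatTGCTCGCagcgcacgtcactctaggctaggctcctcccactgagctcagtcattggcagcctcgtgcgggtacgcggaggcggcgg
Each held 1 match, starting 43 bases before the start in Slc30a1 and 106 bases before it in Slc39a1. The loose form is short and common. It was in 51% of 32851 RefSeq windows of 250 bases before and 50 after a start. It was in 65.9% of the 41 windows of 25 risen carriers and in 50% of the 18 windows of 14 fallen carriers. The kappaB consensus, of 10 letters, was in 8.46% of all windows, in 12.2% of those of risen carriers and in 22.2% of those of fallen carriers, with 5 and 4 windows holding it. Windows were found for 133 of the 173 carriers, and a gene with several starts has several. A match is only a match of letters.

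Amino acid carriers rose in part. Of 26 genes in the amino acid, neurotransmitter and peptide families, 8 rose and 1 fell (17.4% and 14.4% of all tested genes), with a median log2 difference of 0.33 that turned to -0.68 on equal totals. The 8 include Slc1a4, which reached the level only with IL-33. Slc7a1, the main importer of arginine and other cationic amino acids, had 608, 669 and 742 after IL-33, against 340, 300 and 244 after PBS. Its log2 difference was 1.20 ± 0.19 (SE, adjusted p = 0.00351, limma), and no value of one group reached the other. Slc38a2, a sodium-coupled importer of glutamine and other neutral amino acids, averaged 1641 ± 105 with IL-33 and 865 ± 139 with PBS, a rise of 0.93 on the log2 scale that was -0.11 on equal totals. Slc43a3, whose protein carries purine nucleobases although its family carries amino acids, had 341, 260 and 307 after IL-33, against 53.6, 82.9 and 48.9 after PBS, a log2 difference of 2.30 ± 0.25 (adjusted p = 0.000771, limma).

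The heavy chain of the CD98 complex rose, and the 3 light chains among the 173 carriers were not called. Slc3a2 encodes CD98, the glycoprotein that carries light chains such as Slc7a5, Slc7a6 and Slc7a8 to the cell surface, and it had the highest level per kilobase of the 173 carriers with IL-33, 1181, and the second highest with PBS, 710. Its normalized counts were 5292, 3517 and 3690 after IL-33, against 2847, 2378 and 2295 after PBS. It rose by 0.71 on the log2 scale (adjusted p = 0.0287, limma), but was at -0.33 on equal totals and lost its call on omitting IL-33 replicate 2 or any PBS library, with log2 differences of 0.53 to 0.82. Slc7a5, a carrier of large neutral amino acids, averaged 216 ± 33.8 with IL-33 and 201 ± 46.5 with PBS, and Slc7a8 averaged 1836 ± 356 with IL-33 and 1676 ± 113 with PBS. Slc7a6 had 44.1, 16.9 and 22 after IL-33, against 47.4, 40.7 and 34.9 after PBS (log2 difference -0.65), and was called lower only on omitting IL-33 replicate 1 among the 6 libraries left out. The groups overlapped for all 3 light chains, but whether they differed from Slc3a2 in their response was not tested. The glutamine carriers Slc1a5 (600 ± 265 with IL-33, 308 ± 45.3 with PBS) and Slc38a1 (974 ± 241 with IL-33, 1009 ± 139 with PBS) were not called by limma either. Slc1a5 (log2 difference 0.85) was called higher by DESeq2 but not by edgeR. By limma it was called on omitting IL-33 replicate 1 (0.60 to 1.29 over the omitted libraries). In Slc1a5, IL-33 replicates 2 and 3 were at 723 and 781, and replicate 1, at 297, was inside the PBS range of 257 to 344.

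Lysosomal carriers of the same families moved in both directions. Slc15a3, a histidine and peptide carrier of lysosomes, averaged 51.8 ± 22.1 with IL-33 and 18.6 ± 8.44 with PBS and rose by 1.42 on the log2 scale, with groups that touched (27.7 the lowest IL-33 value, 28 the highest PBS value). Its relative Slc15a4 averaged 712 ± 77.1 with IL-33 and 548 ± 53.8 with PBS and was not called (adjusted p = 0.115, limma). Slc38a9, the lysosomal arginine sensor that acts on the growth kinase complex mTORC1, had 37.8, 67.7 and 86.4 after IL-33, against 111, 121 and 124 after PBS, and fell by 0.96 on the log2 scale. Slc15a3 lost its call on omitting IL-33 replicate 3, PBS replicate 2 or 3 (1.14 to 1.81), and shares 28.1% of its exon bases with other genes. Slc38a9 lost its call on omitting IL-33 replicate 2 or any PBS library (-1.21 to -0.63). The number of fallen genes in the amino acid families was 4 on omitting IL-33 replicate 1 (28.4% of all tested genes). It was 0 on omitting PBS replicate 1, 2 or 3 (5.78%, 3.47% and 3.08%). The number of risen genes was 11 on omitting IL-33 replicate 1 (28% of all tested genes). It was 4 on omitting PBS replicate 2 or 3 (7.6% and 6.74%) and 6 or 7 without another library (8.43% to 13.5%). Of 29 tested genes of amino acid sensing at the lysosome, 4 rose and 4 fell (17.4% and 14.4% of all tested genes). Those that kept their call whichever library was left out were Tfe3, Rheb and Depdc5. Tfe3, a transcription factor of lysosomal genes (log2 difference 1.90), and Rheb, the GTPase that activates mTORC1 (1.26), rose. Depdc5, a subunit of the mTORC1 inhibitor GATOR1 (-1.19), fell. Wdr59 (1.01) and Sesn2 (0.67) also rose, and Nprl2 (-1.09), Mlst8 (-0.94) and Sesn1 (-0.83) also fell. Each of these other genes lost its call at least on omitting PBS replicate 2 or 3. An effect on mTORC1 was not tested.

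The serotonin carrier of the plasma membrane and 1 of 2 vesicular monoamine carriers rose. Slc6a4, the serotonin carrier of the plasma membrane (chromosome 11, 76998603 to 77032340, plus strand), had 3817, 2804 and 3315 after IL-33, against 903, 800 and 928 after PBS. Every IL-33 library was well above every PBS library, and the log2 difference was 1.91 ± 0.17 (SE, adjusted p = 0.000324, limma). Per kilobase it was number 4 of the 173 carriers with IL-33 and number 12 with PBS. Slc18a2, a vesicular carrier of monoamines, had 655, 680 and 459 after IL-33, against 320, 263 and 180 after PBS, a log2 difference of 1.25 ± 0.26 (adjusted p = 0.0104, limma) that lost its call on omitting IL-33 replicate 2 or PBS replicate 3 (1.02 to 1.43). The other vesicular monoamine carrier, Slc18a1, was not called, at 19.8 ± 6.41 with IL-33 and 19.8 ± 1.47 with PBS. Slc6a4 and Slc18a2 are also known from mast cells and basophils. The 10 markers of those cells summed to 126, 225 and 354 after IL-33, against 177, 346 and 458 after PBS. Mcpt4 was at 0 in all 6, and Kit lay between 23.1 and 37.8. Of 5 tested markers 0 rose and 1, Cpa3, fell (17.4% and 14.4% of all tested genes). Cpa3 reached the level in only 3 libraries, so its fall is a description. The taurine carrier Slc6a6, the highest carrier per kilobase with PBS at 910 and second with IL-33 at 975, was not called, at 8873, 8508 and 7354 after IL-33, against 8115, 7238 and 7737 after PBS.

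Monocarboxylate and choline carriers that passed the test rose. In the monocarboxylate family 2 of 5 genes rose and 0 fell (17.4% and 14.4% of all tested genes). Slc16a9 had 2067, 2335 and 3690 after IL-33, against 871, 685 and 928 after PBS, a log2 difference of 1.67 ± 0.24 (SE, adjusted p = 0.00265, limma), with 23.5% of its exon bases shared with other genes. Slc16a10, a carrier of aromatic amino acids, averaged 467 ± 170 with IL-33 and 183 ± 4.94 with PBS and rose by 1.28 on the log2 scale, a call lost on omitting PBS replicate 3 (1.01 to 1.52 over the omitted libraries). Slc16a6 was not called, at 320 ± 69.2 with IL-33 and 306 ± 47.2 with PBS. Slc44a2, a choline transporter-like protein, had 1020, 1603 and 1551 after IL-33, against 495, 552 and 424 after PBS, a log2 difference of 1.48 ± 0.22 (adjusted p = 0.00271, limma). Slc48a1, which moves haem out of endolysosomes, averaged 1884 ± 447 with IL-33 and 813 ± 163 with PBS, a log2 difference of 1.20, with replicate 1 the highest IL-33 library at 2392.

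Carriers of nucleosides and vitamins moved in both directions. Slc29a1, an equilibrative nucleoside carrier, averaged 367 ± 59.6 with IL-33 and 158 ± 27.1 with PBS and rose by 1.21 on the log2 scale (adjusted p = 0.0052, limma). Slc28a2, a concentrative, sodium-coupled nucleoside carrier, had 18, 15.4 and 18.6 after IL-33, against 55.1, 58.9 and 76.2 after PBS, a log2 difference of -1.80 ± 0.26 (adjusted p = 0.00262, limma). Slc52a2, a riboflavin carrier, had 111, 232 and 285 after IL-33, against 71.4, 69.8 and 55.9 after PBS. It rose by 1.56 on the log2 scale and lost its call on omitting IL-33 replicate 2, PBS replicate 2 or 3 (1.29 to 1.96). In all, 3 of these 11 genes rose and 1 fell (17.4% and 14.4% of all tested genes). The number that rose was 2 on omitting IL-33 replicate 3 or PBS replicate 1 (13.5% and 10.8% of all tested genes). It was 1 on omitting IL-33 replicate 2, PBS replicate 2 or 3 (8.43%, 7.6% and 6.74%).

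Mitochondrial carriers formed the largest family and mostly did not pass the test. Of 36 Slc25 genes, 4 rose and 3 fell (17.4% and 14.4% of all tested genes), and the median log2 difference was 0.02. Slc25a33, which brings pyrimidine nucleotides into mitochondria (chromosome 4, 149744036 to 149774277, minus strand), had 495, 583 and 629 after IL-33, against 160, 116 and 143 after PBS. Its log2 difference was 2.02 ± 0.20 (SE, adjusted p = 0.000465, limma), with every IL-33 value above every PBS value. Slc25a25, a calcium-regulated carrier of ATP-magnesium and phosphate, had 941, 827 and 981 after IL-33, against 326, 238 and 198 after PBS, a log2 difference of 1.87 ± 0.21 (adjusted p = 0.000901, limma). Among the ADP/ATP exchangers, Slc25a5 fell by 0.80 on the log2 scale, at 266, 148 and 171 after IL-33, against 337, 314 and 335 after PBS, and Slc25a4 was not called (50.8 ± 13 with IL-33, 57.4 ± 8.02 with PBS). Slc25a3, the phosphate carrier, averaged 656 ± 166 with IL-33 and 640 ± 14.4 with PBS and was not called. Slc25a37, the iron importer mitoferrin 1, averaged 29.2 ± 7.45 with IL-33 and 65.2 ± 24.8 with PBS and fell by 1.10 on the log2 scale. Slc25a45 averaged 53.3 ± 19.9 with IL-33 and 131 ± 14.5 with PBS and fell by 1.35.

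Slc25a5 and Slc25a37 lost their calls on omitting any library other than IL-33 replicate 1, with log2 differences of -1.04 to -0.62 and -1.31 to -0.81, and Slc25a45 lost its call on omitting PBS replicate 2 or 3 (-1.61 to -1.06). The number of fallen Slc25 genes was 3 on omitting IL-33 replicate 1, 1 on omitting IL-33 replicate 2, IL-33 replicate 3 or PBS replicate 1, and 0 on omitting PBS replicate 2 or 3. The number that rose was 8 on omitting IL-33 replicate 1 (28% of all tested genes) and 2 on omitting PBS replicate 3 (6.74%). Over all tested genes, 28.4% fell on omitting IL-33 replicate 1 and 3.08% on omitting PBS replicate 3. Among 8 tested genes for mitochondrial import of calcium and pyruvate, 0 rose by limma and 2 fell (17.4% and 14.4% of all tested genes). Mcu, the calcium uniporter, had 176, 132 and 66.1 after IL-33, against 363, 408 and 360 after PBS, and fell by 1.70 on the log2 scale. Vdac2, an outer membrane channel, fell by 1.09, a call lost on omitting any library other than IL-33 replicate 1 (-1.47 to -0.73).

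Nucleotide sugar carriers feed glycosylation in the Golgi and endoplasmic reticulum. Of 19 Slc35 genes, 1 rose and 4 fell (17.4% and 14.4% of all tested genes), with a median log2 difference of -0.28. Slc35b2, which brings the sulphate donor PAPS into the Golgi, had 284, 375 and 466 after IL-33, against 161, 135 and 135 after PBS, a log2 difference of 1.36 ± 0.22 (SE, adjusted p = 0.00437, limma). Slc35d2, a carrier of nucleotide sugars that include UDP-N-acetylglucosamine, had 36, 18.5 and 33.9 after IL-33, against 66.8, 77.1 and 75.5 after PBS, and fell by 1.34 on the log2 scale. Slc35a5 averaged 66.4 ± 18.2 with IL-33 and 133 ± 13.4 with PBS and fell by 1.02. Slc35b1, which brings ATP into the endoplasmic reticulum, was not called (70.7 ± 13 with IL-33, 90.5 ± 16.1 with PBS). Slc35d2 lost its call on omitting PBS replicate 2 or 3 (-1.51 to -1.04), and Slc35a5 on omitting IL-33 replicate 2 or any PBS library (-1.22 to -0.83). The number of risen Slc35 genes was 4 on omitting IL-33 replicate 1 (28% of all tested genes) and 1 without any other library (6.74% to 13.5%). Fallen Slc35 genes numbered 8 on omitting IL-33 replicate 1 (28.4% of all tested genes) and 4 on omitting IL-33 replicate 3 (11.6%). They numbered 1 on omitting IL-33 replicate 2 or PBS replicate 1 (7.23% and 5.78%). On omitting PBS replicate 2 or 3 there were 0 (3.47% and 3.08%).

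Carriers of chloride, bicarbonate and other ions moved in both directions. Slc12a2, the sodium-potassium-chloride importer NKCC1, had 29.7, 43.1 and 32.2 after IL-33, against 7.77, 3.64 and 3.49 after PBS, a description since it reached the level only with IL-33. Slc12a4, a potassium-chloride exporter, averaged 91.9 ± 12.7 with IL-33 and 34.7 ± 15.1 with PBS and rose by 1.45 on the log2 scale. It lost its call on omitting PBS replicate 2 or 3 (1.24 to 1.77).

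The chloride-bicarbonate exchanger Slc4a2 had 1234, 2144 and 2903 after IL-33, against 1152, 1035 and 950 after PBS. It rose by 0.92 on the log2 scale, with replicate 1 barely above PBS, and was at -0.12 on equal totals. The sodium-bicarbonate importer Slc4a7 had 245, 141 and 130 after IL-33, against 310, 311 and 427 after PBS and fell by 1.06. Slc26a11, an anion carrier, averaged 38.8 ± 12.4 with IL-33 and 74.9 ± 7.27 with PBS and fell by 0.97. In all, 1 of 7 bicarbonate and anion exchangers rose and 3 fell (17.4% and 14.4% of all tested genes). Slc4a2 and Slc4a7 lost theirs on omitting any library other than IL-33 replicate 1 (0.64 to 1.26 and -1.34 to -0.89), and Slc26a11 on omitting IL-33 replicate 2 or any PBS library (-1.19 to -0.72).

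Slc24a3, a potassium-dependent sodium-calcium exchanger, had 464, 386 and 364 after IL-33, against 739, 706 and 764 after PBS. Its log2 difference was -0.87 ± 0.17 (SE, adjusted p = 0.00767, limma), with no overlap, and the call was lost only on omitting PBS replicate 3 among the 6 libraries left out (-0.97 to -0.80 over them). It was the 1 gene called among 9 sodium-proton and sodium-calcium exchangers, of which 0 rose and 1 fell (17.4% and 14.4% of all tested genes). The magnesium carrier Slc41a2 averaged 30.3 ± 0.570 with IL-33 and 12.2 ± 0.299 with PBS, rose by 1.24 on the log2 scale and lost its call on omitting PBS replicate 2 or 3 (1.22 to 1.26). Phosphate and copper importers were not called: Slc20a1 averaged 325 ± 84.6 with IL-33 and 318 ± 94.4 with PBS, and Slc31a1 averaged 38.7 ± 14.6 with IL-33 and 41.4 ± 10.3 with PBS.

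Some transporters belong to carrier families but have other names. Of 42 tested genes under other names, 6 rose and 6 fell, close to the 17.4% and 14.4% of all tested genes. Mfsd7a had 104, 112 and 98.3 after IL-33, against 3.11, 2.18 and 3.49 after PBS. It reached the level only with IL-33, so its log2 difference of 4.77 is a description. Clcn3, a chloride-proton exchanger of endosomes, rose by 1.22 on the log2 scale and Tmem165, a Golgi cation carrier, by 1.68. Sfxn5, a sideroflexin of mitochondria, fell by 1.55, and Xpr1, the phosphate exporter, fell by 1.00. Tmem165 lost its call on omitting IL-33 replicate 2 or any PBS library (1.4 to 2.19), and Xpr1 on omitting PBS replicate 3 (-1.13 to -0.93).

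Of 15 tested partner and trafficking genes, 4 rose and 1 fell (17.4% and 14.4% of all tested genes). Arrdc4, an arrestin relative that removes glucose carriers from the cell surface, had 909, 1077 and 1483 after IL-33, against 269, 148 and 138 after PBS, a log2 difference of 2.67 ± 0.30 (SE, adjusted p = 0.000814, limma). Emb, embigin, the chaperone of some monocarboxylate carriers, had 157, 96.9 and 84.7 after IL-33, against 349, 355 and 439 after PBS, a log2 difference of -1.79 ± 0.26 (adjusted p = 0.00258, limma). Nedd4, a ubiquitin ligase that acts on membrane proteins, rose by 0.85 on the log2 scale. The groups of all 3 genes did not overlap.

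**Figure D4:**
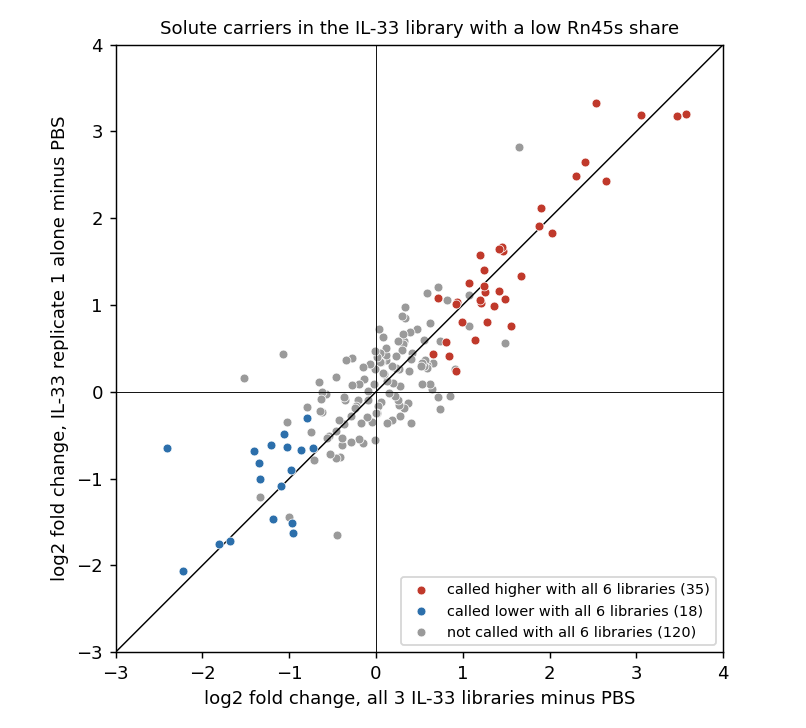
Log2 fold change of the 173 solute carriers with IL-33 replicate 1 alone against PBS (vertical axis), set against the value with all 3 IL-33 libraries (horizontal axis), with the line of equal values. Replicate 1 is the IL-33 library with 24.3% of its reads on Rn45s; all 35 red points lie above 0 and all 18 blue points below 0 on both axes, and both axes share the PBS libraries and replicate 1.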

How the data were processed

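The deposited values are normalized gene counts (unit: signal), with 1 scaling factor per library. The submitters' processing notes name HISAT2, HTSeq, DESeq2 and build mm10. Tool versions, the annotation and whether counting used strand: not given in the sources used here, so overlapping genes may share reads. Per the labels' protocols, an rRNA depletion kit and a directional library kit were used on total RNA. All values came out as whole multiples of 1 read within 0.1 (100% in each library), which gave the recovered reads. Coordinates are 1-based GENCODE vM21 gene spans on GRCm38 (mm10), matched for 173 carriers, 1 of them by an older symbol. Promoters are from RefSeq (GRCm38.p6).

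Groups were compared with limma 3.58.1 in R 4.3.3 (trended eBayes, two-sided) as IL-33 minus PBS on log2 of the normalized count + 1, for the 10544 genes with at least 10 in at least 3 libraries, with Benjamini-Hochberg adjustment over all of them. On this scale the change of a low gene is understated. Means are given ± SD over 3 libraries. Intervals between libraries cover neither separate animals nor counting of independent molecules. The 20 alternatives were a pseudocount of 0.5 or 5, no filter or one at 50, TMM, equal totals with and without Rn45s, quantile normalization, no trend, the replicate number as a block, the Rn45s share as covariate, each library left out, IL-33 replicate 1 alone, and edgeR 4.0.16 and DESeq2 1.42.0 on the recovered reads. With a library left out, the level still had to be reached in 3 libraries. The pipeline was tested on simulated data.

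Families were grouped by the solute they carry. Named genes were the 10 largest called changes per direction with no overlap and a mean of at least 50, up to 2 called per solute group and direction, and carriers with known roles in leukocytes, 61 in all after 2 that are not reported here; other lists gave up to 3 called genes per direction. The members and lists were chosen with earlier results of these data known. Slc1a4, Slc5a3, Slc7a6, Slc18a1, Slc39a8, Slc39a9 and the marker genes fall outside that rule and were named after their values were seen. So were some called genes of amino acid sensing at the lysosome, all of which are named.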

Additional observations from a re-analysis of the deposited data

How the results depend on the processing

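The number of risen carriers (35) was between 30 and 41 with the other pseudocounts, filters, TMM, quantile normalization, no trend, edgeR and DESeq2, and 42 with IL-33 replicate 1 alone. It fell to 6 on equal totals (264 of all 10544 tested genes) and to 23 with the Rn45s share as covariate (914 of 10544). When a library was left out it ranged from 18 to 53 (6.74% to 28% of all tested genes). The number of fallen carriers (18) was 67 on equal totals, 46 on equal totals without Rn45s and 8 with the Rn45s share as covariate. Of all 10544 tested genes, 5287, 3570 and 642 fell at these settings. When a library was left out, the number of fallen carriers ranged from 3 to 33 (3.08% to 28.4% of all tested genes). The median of all tested genes moved to -1.06 on equal totals and to -0.45 on equal totals without Rn45s. The cause of these shifts was not tested. No paired reading was possible from the numbers, since same-numbered libraries deviated together with correlations of 0.046, 0.24 and -0.16, and the fit with the replicate block gave 34 risen and 18 fallen carriers. Of 1194 single-gene values under the alternatives, 988 kept their direction and side of the threshold, 133 lost the call, 16 gained one and 57 changed sign.

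Signs are given for the 61 named genes only. Those that turned on equal totals, given as log2 differences, were the signs of Slc15a4 (-0.66), Slc16a6 (-0.99), Slc1a5 (-0.19), Slc20a1 (-0.99), Slc22a4 (-0.38), Slc25a3 (-1.03), Slc25a47 (-0.12), Slc2a12 (-0.76), Slc30a5 (-0.89), Slc38a2 (-0.11), Slc39a6 (-0.19), Slc3a2 (-0.33), Slc4a2 (-0.12), Slc6a6 (-0.95), Slc7a5 (-0.92), Slc7a8 (-0.92) and Slco4a1 (-0.74). On equal totals that leave Rn45s out, the sign turned for Slc15a4 (-0.047), Slc16a6 (-0.37), Slc20a1 (-0.38), Slc25a3 (-0.42), Slc2a12 (-0.26), Slc30a5 (-0.27), Slc6a6 (-0.33), Slc7a5 (-0.30), Slc7a8 (-0.31) and Slco4a1 (-0.13). Quantile normalization turned Slc16a6 (-0.073), Slc20a1 (-0.085), Slc25a3 (-0.24), Slc31a1 (0.075), Slc6a6 (-0.67) and Slc7a8 (-0.31). With the Rn45s share as covariate the sign turned for Slc1a5 (-0.16), Slc30a5 (-0.064), Slc30a7 (0.050), Slc31a1 (0.10) and Slc38a1 (0.30). IL-33 replicate 1 alone turned Slc1a5 (-0.043), Slc30a5 (-0.0086), Slc31a1 (0.15) and Slc38a1 (0.32). TMM turned Slc25a3 (-0.0040). Leaving out a library turned the sign of Slc16a6 (-0.095 to 0.22), Slc20a1 (-0.18 to 0.26), Slc25a3 (-0.19 to 0.14), Slc2a12 (-0.40 to 0.87), Slc31a1 (-0.36 to 0.21), Slc38a1 (-0.26 to 0.066), Slc7a5 (-0.038 to 0.29) and Slc7a8 (-0.037 to 0.21), none of them called with all 6 libraries.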
